A study of Mus musculus with 30 samples.

Results

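Rpe65, Lrat, Rlbp1, Rdh5, Best1, Stra6 and Mertk are genes of the retinal pigment epithelium and of the visual cycle. The array held 9 probes for these 7 genes, of 41174 probes under 28146 gene names in all. The members were every probe that carried one of the 7 names in the annotation of the hypothalamus arrays, and the same probes were read on the eye arrays. Lrat and Best1 had a pair of probes each, and the other genes had 1. The rule used gene names and no measured value.

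The question of the study was how the loss of the clock gene Per3 alters gene expression in the eye and the hypothalamus under light that interferes with behaviour. The mice were adult males, WT or Per3-/-, and were litter mates of the C57Bl/6J background. All mice of both genotypes had passed through 17 cycles of 3.5 h light and 3.5 h dark and were killed in the light phase of the last cycle. The Per3-/- mouse carries a PGK-NEO cassette in place of exon 3 and of the intron that follows it, in every cell of the body. RNA was measured in the whole eye of 7 WT and 7 Per3-/- mice and in a hypothalamic tissue block of 8 WT and 8 Per3-/- mice, on a separate array for each animal and tissue. The whole eye holds lens, cornea, muscle and connective tissue beside the retina and its pigment epithelium, so a level is that of the whole organ.

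The pigment epithelium is the single layer of pigmented cells behind the photoreceptors. After light has turned 11-cis-retinal into the all-trans form, the pigment epithelium esterifies the returning retinol (LRAT), isomerises and hydrolyses the ester (RPE65), carries the 11-cis product (CRALBP, encoded by Rlbp1) and oxidises it back to 11-cis-retinal (RDH5). Retinol enters from the blood through the receptor STRA6. The same cells take up shed photoreceptor outer segments each day through the receptor kinase MERTK, and their basolateral membrane holds the chloride channel bestrophin 1 (BEST1). Of these proteins, CRALBP is also present in Müller glia, MERTK in macrophages, microglia and astrocytes, and bestrophin 1 in astrocytes.

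The first 30 bases of 5 of the 60-mer probes are shown, for Rpe65 and for the genes with more than 1 probe, since the paired probes gave different values.
Rpe65, A_51_P404800: caatctcttccatcatatcaatacttatga
Lrat, A_51_P350033: ggagtcacatttctggtactgaactgtttt
Lrat, A_52_P669005: ggcgttgattactgcaaaataaattaactt
Best1, A_51_P508781: agaaccaagagtacttaatagtcctgcctg
Best1, A_52_P299934: acagctgtatgcctacgactggataagtat
On assembly mm9 of the array annotation, the Rpe65 probe lies at chr3:159277698-159277757. The Lrat probes lie at chr3:82699609-82699668 and chr3:82696805-82696864, and start 2184 and 4988 bases into the transcript. Of the Best1 probes, A_51_P508781 lies at chr19:10059700-10059759 and starts 1984 bases into the transcript. A_52_P299934 starts 877 bases in, and its 60 bases extend over 1070 bases of the genome (chr19:10065106-10066175), so it crosses at least 1 intron. The remaining probes lie at chr7:86520067-86520126 (Rlbp1), chr10:128350646-128350703 (Rdh5), chr9:58000379-58000990 (Stra6) and chr2:128627867-128627926 (Mertk). Whether a probe lies in a coding exon or a UTR was not analysed here.

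Values are log2 processed intensities relative to the 75th percentile of their array, so 0 is the level of a probe brighter than 75% of all probes. Between 67.9% and 80.7% of the probes of an array were well above background, as the scanner software marked them. Photoreceptor genes were higher in the eye for 15 of 15 measured, lens genes for 8 of 8, and 10 of 10 neuropeptide genes of the hypothalamus were higher in the hypothalamus. Tissue cannot be told apart from slide, nor from anything else that differed between the slides, since each tissue had its own slides. The Per3 probe starts 4401 bases into the transcript, outside exon 3, so it is no check of the genotype. Its mean was -3.13 ± 0.39 in the eyes of WT (SD, n = 7) and -3.58 ± 0.52 in those of Per3-/- mice (SD, n = 7), and -3.46 ± 0.15 (SD, n = 8) and -3.97 ± 0.21 (SD, n = 8) in the hypothalamus.

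Between the tissues, the enzymes and the carrier of the visual cycle were far higher in the eye, the retinol receptor differed little, and the phagocytosis receptor and the chloride channel were lower in the eye than in the hypothalamus. At an adjusted p under 0.05 (limma), 6 of the 9 member probes were higher in the eye, where 47.5% of all probes were. The other 3 were lower in the eye, where 35.1% of all probes were. Most probes differed between such unlike tissues, so the sizes say more than the calls. The 5 probes of Rpe65, Lrat, Rlbp1 and Rdh5 differed by more than 4 on the log2 scale in favour of the eye, and 3.16% of all probes did.

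Rpe65, the isomerohydrolase that the pigment epithelium uses to regenerate chromophore, ranged from 0.84 over a median of 1.33 to 1.46 in the 7 WT eyes. In the 7 Per3-/- eyes it ranged from 0.92 over 1.18 to 1.61. In the hypothalamus the probe lay between -8.75 and -6.86 over all 16 arrays and was well above background on 0 of them. The eye exceeded the hypothalamus by 9.27 ± 0.16 on the log2 scale (SE), a measured difference between a signal and a background. The level in the eye was at least 210-fold higher than in the hypothalamus, where the hypothalamus is set at the dimmest signal that was well above background on each array. The difference passed the test (limma, adjusted p = 1.05e-28).

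Lrat, which forms the retinyl ester that RPE65 uses, gave medians of 0.74 in WT and 0.71 in Per3-/- eyes with A_51_P350033. With A_52_P669005 the medians were 1.88 and 1.74, over ranges of 1.62 to 1.96 and 1.54 to 1.91. In the hypothalamus A_51_P350033 lay between -7.57 and -6.10 and was well above background on 1 of 16 arrays, and A_52_P669005 lay between -7.15 and -5.69 and was on 4 of 16. The eyes and hypothalami did not overlap with either probe. The differences were 7.39 ± 0.12 and 8.31 ± 0.11 (SE), and as lower bounds the eye was at least 139-fold and at least 268-fold higher (limma, adjusted p = 7.49e-30 and 2.05e-31).

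Rlbp1, whose protein binds 11-cis-retinal and 11-cis-retinol, stood well above background in all 30 samples. It ranged from 3.65 to 4.16 in WT eyes with a median of 4.04, and from 3.78 to 4.11 in Per3-/- eyes with a median of 3.92. In the hypothalamus the median was -1.35 in WT and -1.28 in Per3-/- mice, and the 16 arrays spanned -1.63 to -0.82. The eye was 37.0-fold higher, by 5.21 ± 0.06 on the log2 scale (SE, limma, adjusted p = 6.94e-33). No hypothalamus came within 4.71 of the eye of the same genotype and replicate number, over 14 such pairs. The labels do not state that such a pair is 1 mouse.

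Rdh5, the 11-cis-retinol dehydrogenase, gave medians of 5.83 in WT and 5.74 in Per3-/- eyes and lay between 5.38 and 6.04 over the 14 eyes. It was also well above background on all 16 hypothalamus arrays, with medians of 0.96 in WT and 1.09 in Per3-/- mice. The difference was 4.61 ± 0.15 (SE), or 24.5-fold (limma, adjusted p = 3.87e-22). In the eyes Rdh5 varied over 0.66 on the log2 scale, and in the hypothalami over 1.89, from 0.10 to 1.997.

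Stra6, the receptor that takes up retinol from its plasma carrier, was at similar levels in both tissues. The WT eyes ranged from -1.04 over -0.50 to -0.30 and the Per3-/- eyes from -1.29 over -0.82 to -0.31. In the hypothalamus WT mice ranged from -2.72 over -1.02 to -0.29 and Per3-/- mice from -1.53 over -0.99 to -0.66, so the tissues overlapped. The eye was higher by 0.40 ± 0.16 (SE, limma, adjusted p = 0.0241), in 9 of 14 pairs of the same genotype and replicate number. This call did not hold when the arrays were centred on their median in place of the 75th percentile, which gave -0.02 (adjusted p = 0.902), nor without Per3-/- mouse 2 (0.37, adjusted p = 0.0509) or without Per3-/- mouse 5 (0.36, adjusted p = 0.0550). The median of all probes was itself 0.19 higher in the eye under the main scaling.

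Best1, the bestrophin chloride channel, was lower in the eye with both probes. A_51_P508781 ranged from -1.87 to -1.46 in WT eyes (median -1.69) and from -1.88 to -1.35 in Per3-/- eyes (median -1.59). In the hypothalamus it ranged from -0.19 to 0.33 in WT mice (median 0.04) and from -0.70 to 0.07 in Per3-/- mice (median -0.18), above every eye. The hypothalamus was 2.93-fold higher, by 1.55 on the log2 scale (limma, adjusted p = 1.83e-18), in 14 of 14 pairs of the same genotype and replicate number. A_52_P299934 was well above background on all 16 hypothalamus arrays, between -5.29 and -4.27, and on only 8 of 14 eye arrays. Its eyes lay between -6.81 and -5.43 except for Per3-/- mouse 7 at -3.92, which stood above every hypothalamus. The difference of -1.13 ± 0.16 (SE, limma, adjusted p = 1.31e-07) fell to -0.15 under normexp background correction (adjusted p = 0.426).

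Mertk, the receptor kinase that binds outer segments through bridging ligands, was also lower in the eye. The medians were -1.16 in WT and -1.05 in Per3-/- eyes, and the 14 eyes spanned -1.52 to -0.93. The hypothalamus medians were -0.42 in WT and -0.48 in Per3-/- mice, and the 16 hypothalami spanned -0.81 to -0.20, all above the highest eye. The hypothalamus was 1.57-fold higher (eye minus hypothalamus -0.65 ± 0.07, SE, limma, adjusted p = 4.05e-10). Of 9 microglial genes, 8 were lower in the eye and 1 was higher, with a median difference of -1.10. Of 11 genes of Müller glia and astrocytes, 7 were lower and 3 were higher, with a median of -1.54. Dkk3 (3.33) and Vim (3.10) were among the higher ones. Over all probes, 35.1% were lower in the eye and 47.5% higher. The summed level of the microglial genes, on the linear scale relative to the array's 75th percentile, lay between 15.99 and 21.3 in WT eyes, 17.1 and 19.1 in Per3-/- eyes, 17.2 and 26.7 in WT hypothalami and 21.4 and 25.7 in Per3-/- hypothalami, and all 9 were well above background in both tissues. Their part in the levels of Mertk and Best1 was not tested, and in a bulk tissue fewer cells of a type and less RNA per cell cannot be told apart.

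**Figure D1:**
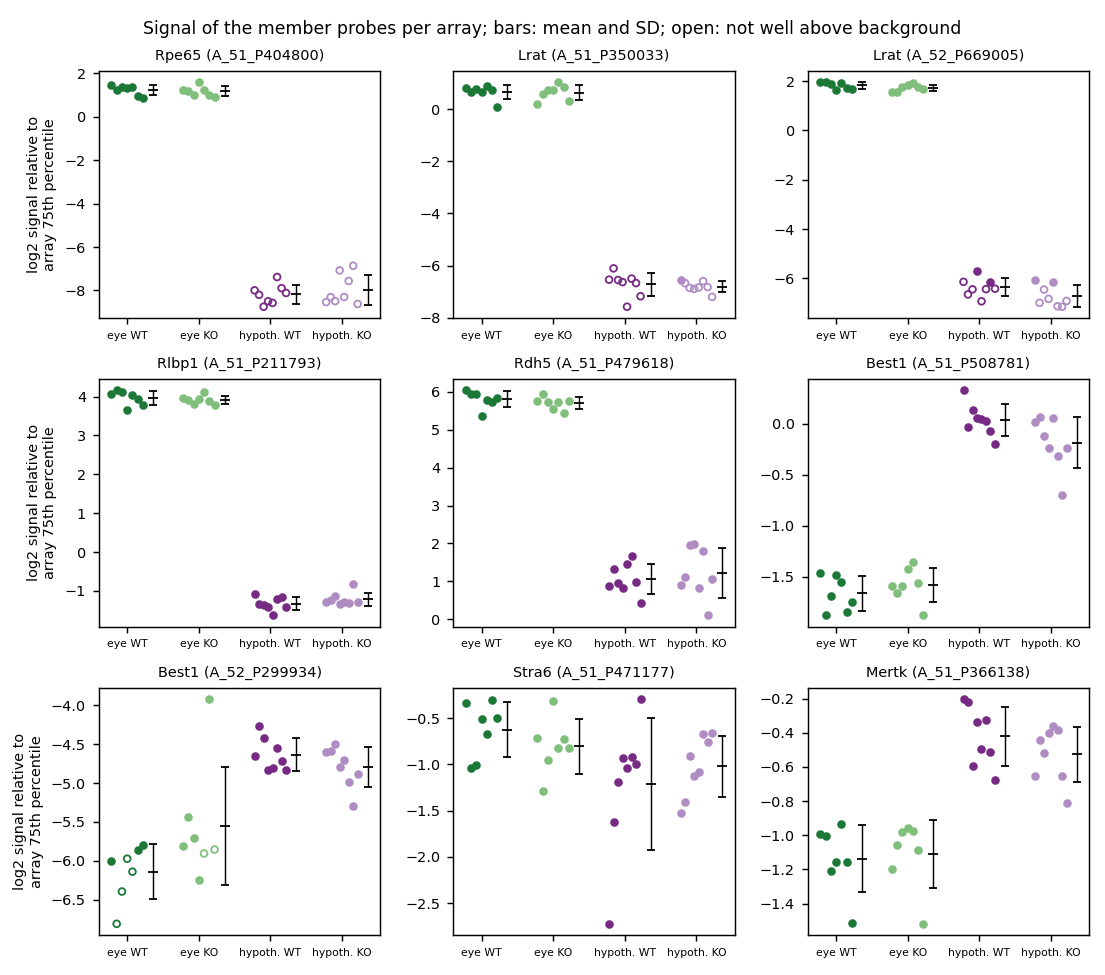
Log2 signal relative to the array's 75th percentile (vertical axis) of each member probe in 7 WT eyes, 7 Per3-/- eyes, 8 WT hypothalami and 8 Per3-/- hypothalami; each point is an array, open points were not well above background, and bars give the mean and SD. The eyes stand above the hypothalami for Rpe65, Lrat, Rlbp1 and Rdh5 and below them for Best1 and Mertk, apart from 1 Per3-/- eye with the second Best1 probe, while the genotypes overlap in every panel.

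The partners of the members varied as much. Of all probes, 47.5% were higher in the eye and 35.1% lower. Among genes of the visual cycle outside the 7, 10 of 14 measured were higher in the eye and 2 were lower (median difference 2.62, against 0.19 over all probes). Among those higher in the eye were Rgr, the retinal G protein-coupled receptor of the pigment epithelium (at least 2019-fold), Rbp3, the retinoid carrier between photoreceptors and pigment epithelium (at least 1041-fold), Abca4, the photoreceptor transporter of retinoids (by 7.26 ± 0.28, SE, on the log2 scale), and Rrh, peropsin (at least 70.0-fold). Rgr and Rrh were well above background on 0 of 16 hypothalamus arrays, as Rpe65 was. Rbp4, the plasma carrier that STRA6 binds, was lower in the eye by 0.83.

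Genes of outer segment phagocytosis went both ways: 7 of 13 were higher in the eye, 3 were lower and 3 did not pass the test (median 0.62). These counts are not far from the shares over all probes, 47.5% higher and 35.1% lower, and are no trait of the set. Tulp1, a photoreceptor protein that can act as a bridge to MERTK (5.17 ± 0.06, SE), the scavenger receptor Cd36 (4.78 ± 0.18) and the integrin subunit Itgb5 (2.30 ± 0.04) differed the most. The MERTK ligands Gas6 and Pros1 were higher in the eye by 1.46 and 0.67, unlike Mertk itself. Tyro3, a kinase of the same family, was lower in the eye by 0.90, and Axl did not pass the test (-0.08, adjusted p = 0.127).

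Among other genes of pigment epithelial transport, secretion and identity, 14 of 19 were higher in the eye and 4 were lower (median 1.28). The shares over all probes were 47.5% and 35.1%. The largest differences in this list were those of the cation channel Trpm1 (at least 824-fold), the water channel Aqp1 (7.32 ± 0.54, SE) and Slc16a8 (5.74 ± 0.22). Slc16a8 is the basolateral lactate transporter of the pigment epithelium. RNA of the whole eye does not show which of its cells gave the signal of a listed gene. Otx2, a transcription factor of the pigment epithelium, was higher by 3.88, and Mitf, another one, did not pass the test (0.01 ± 0.10, adjusted p = 0.914). All 12 genes of melanin synthesis were higher in the eye (median 4.91), led by Mlana (at least 2770-fold), Dct (10.35 ± 0.10) and Pmel (8.01 ± 0.08).

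**Figure D2:**
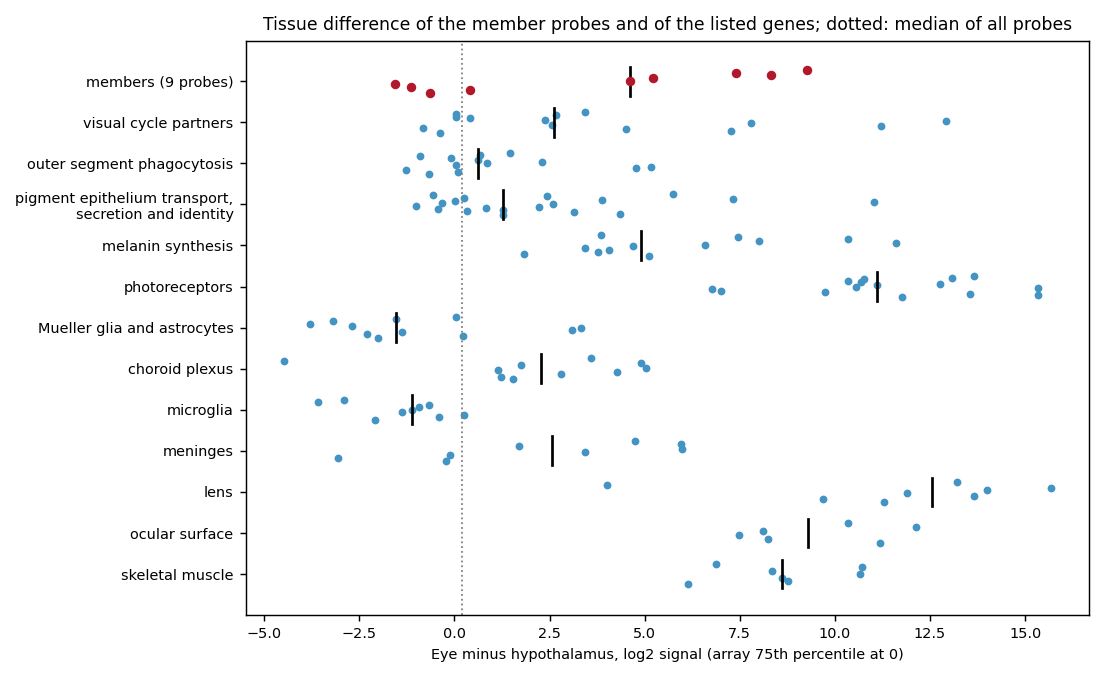
Eye minus hypothalamus on the log2 scale (horizontal axis) for the 9 member probes (red) and for the measured genes of 12 lists (blue); vertical bars are medians and the dotted line is the median of all 41174 probes at 0.19. The members reach from -1.55 to 9.27. The lists of photoreceptors (median 11.10) and melanin synthesis (median 4.91) lie wholly above 0, as do those of lens, ocular surface and skeletal muscle.

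Between the genotypes, no member probe passed the test in either tissue. In the eye 0 of 9 probes had an adjusted p under 0.05 (limma, all adjusted p over 0.99), where 0.0194% of all probes did, 8 of 41174, and 1 with the replicate number as a block. At an unadjusted p under 0.05 there were also 0 of 9, where 1.80% of all probes were. The differences, Per3-/- minus WT, lay between -0.18 and 0.59 with a median of -0.05, against 0.00 over all probes. Of the 9 probes, 3 were higher and 6 lower in Per3-/- eyes.

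Rpe65 differed by -0.06 ± 0.12 (SE), with a 95% interval of -0.32 to 0.20. The means were 1.22 ± 0.23 in WT (SD, n = 7) and 1.17 ± 0.23 in Per3-/- eyes (SD, n = 7), and 2 of the 4 slides had the higher mean in each genotype. Lrat differed by -0.03 ± 0.15 and -0.10 ± 0.08, Rlbp1 by -0.05 ± 0.09 and Rdh5 by -0.11 ± 0.10. Across these 4 genes the intervals reached from -0.35 to 0.29, so a change of the visual cycle enzymes of that size could not have been told from none. The 4 slides did not share a direction for any of them.

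Outside the cycle, Stra6 differed by -0.18 ± 0.15 (interval -0.51 to 0.15), Mertk by 0.03 ± 0.11 (interval -0.20 to 0.25) and Best1 by 0.08 ± 0.09 with A_51_P508781. The second Best1 probe differed by 0.59 ± 0.30 (interval -0.06 to 1.23), with an exact permutation p of 0.0490 over 3432 arrangements, two-sided, and of 0.0648 when genotypes were exchanged only within slides. Without Per3-/- mouse 7 the difference was 0.31. That probe was well above background in 3 of 7 WT and 5 of 7 Per3-/- eyes, and its deviations had a correlation of 0.04 with those of the other Best1 probe over the 14 eyes.

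In the hypothalamus 0 of 9 probes passed the adjusted threshold (limma, all adjusted p over 0.99), where 0.0413% of all probes did, 17 of 41174, and 5 with the replicate block. At an unadjusted p under 0.05 there was 1 of 9, where 2.82% of all probes were. That probe was A_51_P508781 of Best1, with means of 0.04 ± 0.15 in WT (SD, n = 8) and -0.18 ± 0.25 in Per3-/- mice (SD, n = 8). Its difference was -0.22 ± 0.10 (SE, exact permutation p = 0.0444 over 12870 arrangements, two-sided, and 0.0231 within slides), and Per3-/- mice had the lower mean on 4 of 4 slides. The genotypes overlapped, with 4 of 8 Per3-/- mice below every WT mouse. The second Best1 probe differed in the same direction by -0.16 ± 0.11 on 4 of 4 slides, and the deviations of both probes had a correlation of 0.66 there.

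The other genes of the hypothalamus gave differences of 0.11 ± 0.08 for Rlbp1, 0.15 ± 0.26 for Rdh5, 0.20 ± 0.26 for Stra6 and -0.11 ± 0.08 for Mertk. For Stra6, WT mouse 1 alone lay at -2.72, and without it the difference was -0.02. Rpe65 and Lrat lay near or at background in the hypothalamus, so their differences there compare background signals.

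**Figure D3:**
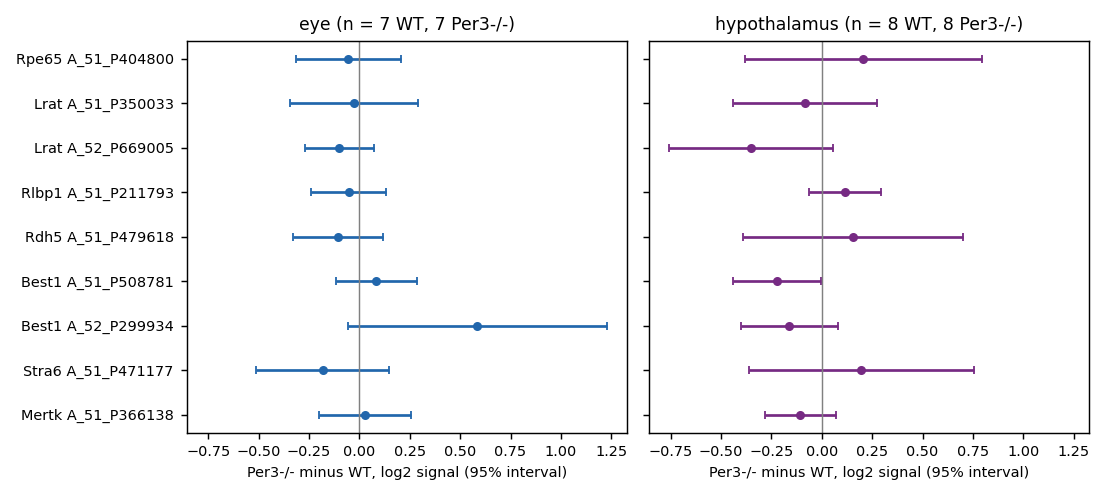
Per3-/- minus WT on the log2 scale (horizontal axis) for each member probe in the eye (7 against 7 mice) and the hypothalamus (8 against 8); bars are 95% intervals of the linear model. All intervals of the eye include 0, and in the hypothalamus that of A_51_P508781 of Best1, from -0.44 to just below 0, alone does not.

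The genotype effect was also compared between the tissues. None of the 9 probes differed at an adjusted p under 0.05 (limma, all adjusted p over 0.99), where 0.00486% of all probes did, 2 of 41174. Both Best1 probes had an unadjusted p under 0.05, where 1.93% of all probes did. The effect in the eye minus that in the hypothalamus was 0.31 ± 0.14 and 0.75 ± 0.31 for them (SE). No listed gene passed the genotype test in either tissue, over 132 genes. In the eye, the median difference was -0.01 among visual cycle partners (range -0.17 to 0.65), -0.02 among genes of pigment epithelial transport, secretion and identity (-0.13 to 0.17) and 0.07 among genes of melanin synthesis (-0.12 to 0.20).

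From eye to eye, no relation between 2 members passed the test. With 1 probe per gene, that of the highest mean, and genotype means removed, 15 of 21 pairs had a positive Pearson's r over the 14 eyes, with a median r of 0.32 and a range of -0.48 to 0.69. With the other probes of Lrat and Best1, those of lowest mean, the median r was 0.02. Over 27883 probes well above background on every eye array, the median r with a member lay between -0.11 (Mertk) and 0.09 (Stra6). No pair passed adjustment over the 21 relations. By permutation within genotypes, 5 pairs had an unadjusted p under 0.05. The share of pairs of other probes that reach this was not computed.

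The strongest was that of Lrat and Rlbp1, the esterifying enzyme and the carrier (r = 0.69, permutation p = 0.00895, adjusted p = 0.135, Spearman's rho = 0.74, permutation p = 0.00582, adjusted p = 0.0817, 14 eyes). It was 0.63 without the 2 eyes farthest from the median of Lrat and 0.73 with slide means removed. Within the genotypes it was 0.91 in the 7 WT eyes and 0.34 in the 7 Per3-/- eyes. Rlbp1 and Rdh5 had r = 0.58 (permutation p = 0.0486, adjusted p = 0.191, rho = 0.45, permutation p = 0.124, adjusted p = 0.261), and 0.21 without the 2 farthest eyes. For this pair r was 0.85 in WT and -0.00133 in Per3-/- eyes. The difference between the genotypes in r was not tested.

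Rpe65 had r = 0.66 with Best1 (permutation p = 0.0168, adjusted p = 0.135, rho = 0.68, permutation p = 0.0126, adjusted p = 0.0883) and r = 0.65 with Mertk (permutation p = 0.0192, adjusted p = 0.135, rho = 0.63, permutation p = 0.0235, adjusted p = 0.123). With slide means removed they were 0.06 and 0.24, and without the 2 farthest eyes 0.69 and 0.49. In WT eyes they were 0.67 and 0.76, and in Per3-/- eyes 0.66 and 0.54. Best1 and Mertk had r = 0.57 (permutation p = 0.0470, adjusted p = 0.191, rho = 0.53, permutation p = 0.0662, adjusted p = 0.174), 0.53 without the 2 farthest eyes, 0.34 with slide means removed, 0.28 in WT and 0.85 in Per3-/- eyes. Rdh5 had a negative r with Best1 (-0.29) and with Stra6 (-0.48), and neither pair passed.

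For Rpe65, Stra6 and Best1, most of the spread between eyes lay between slides. Of the spread of Rpe65 among eyes of 1 genotype, 73.9% lay between the 4 slides, and 68.9% of that of Stra6, 68.3% of Best1, 48.1% of Mertk, 47.8% of Rdh5, 20.3% of Rlbp1 and 12.7% of Lrat. The share that 4 slides would hold without a slide effect was not computed, so the lower shares are no evidence of one. Slide 4 held the 4 eyes of lowest Rpe65, with a mean of 0.93 against 1.34, 1.20 and 1.39 on slides 1 to 3. The same 4 eyes had the lowest slide mean of Best1 (-1.76) and of Mertk (-1.32). Mice of 1 replicate number lay on 1 slide, so slide and mouse number cannot be told apart.

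**Figure D4:**
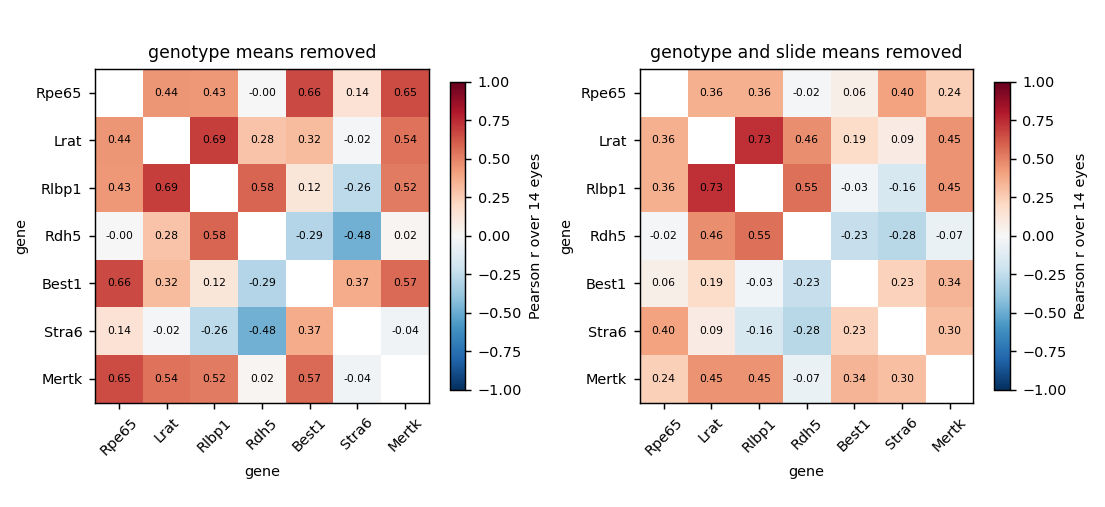
Pearson's r (colour and numbers, from -1 to 1) between the members over 14 eyes, with genotype means removed (left) and with slide means removed as well (right). The pair of Lrat and Rlbp1 is at 0.69 on the left and 0.73 on the right, and that of Rpe65 and Best1 at 0.66 and 0.06.

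The genes whose deviations were most like those of Rpe65 over the 14 eyes, among 27883 probes well above background on every eye array, were Zfp935 (r = 0.95), Gdap1 (0.95), Galnt1 (0.93), Poc1b (0.93), Rabgap1l (0.92), Zfp938 (0.92), Tmem87b (0.92) and Zfp930 (0.92). They were chosen for their r, which is given without a test. With slide means removed as well, their r with Rpe65 was 0.78 to 0.90. None of the 8 is a gene of the lists used here, and their tissue differences ran from -3.10 (Gdap1) to 1.19 (Zfp938). Over all 27883 probes, r with Rpe65 had a median of -0.08, and its central 90% reached from -0.65 to 0.64. Rpe65 with Best1 (0.66) and with Mertk (0.65) lay just above that upper limit. The limit was 0.42 for Lrat, 0.57 for Rlbp1, 0.59 for Rdh5, 0.49 for Best1 and 0.63 for Mertk. Lrat with Rlbp1 (0.69) lay above both of its limits. Rlbp1 with Rdh5 (0.58) lay below that of Rdh5, and Best1 with Mertk (0.57) below that of Mertk.

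The members were then set against the mean log2 level of each list over mice, with genotype means removed, in 139 relations of members and lists in both tissues. In the eye, 1 of 84 passed adjustment over all 139. Rlbp1 rose and fell with the photoreceptor genes (r = 0.82, permutation p = 0.000560, adjusted p = 0.0195, Spearman's rho = 0.76, permutation p = 0.00268, adjusted p = 0.109, 14 eyes). The relation was 0.75 without the 2 farthest eyes, 0.80 with slide means removed, 0.86 within WT and 0.81 within Per3-/- eyes. All 15 photoreceptor genes had a positive r with Rlbp1, from 0.22 (Gnat1) to 0.84 (Sag). Stra6 ran against the lens genes (r = -0.77, permutation p = 0.00226, adjusted p = 0.0628, rho = -0.59, permutation p = 0.0309, adjusted p = 0.383), which did not pass and was -0.60 without the 2 farthest eyes and -0.50 with slide means removed. No Spearman relation passed adjustment.

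In the hypothalamus Rdh5 was tied to markers of the choroid plexus, the epithelium of the brain's ventricles that secretes cerebrospinal fluid. Over 16 mice r was 0.87 with the mean of the 8 marker genes that were well above background on all 16 arrays (permutation p = 5.0e-05, adjusted p = 0.00347, Spearman's rho = 0.80, permutation p = 0.00121, adjusted p = 0.0841). It was 0.83 without the 2 farthest mice, 0.80 with slide means removed, 0.90 within WT and 0.88 within Per3-/- mice. Each of the 10 listed genes had an r between 0.83 and 0.91 with Rdh5, among them Clic6 (0.91), Folr1 (0.87) and the klotho gene Kl (0.88). Of the 10, 9 were higher in the eye, where 47.5% of all probes were, and 1 was lower (median difference 2.27). They are thus not particular to the choroid plexus in these data. Across the 14 eyes, Rdh5 had r = 0.69 with the mean of 9 of them (permutation p = 0.00952, adjusted p = 0.153), which did not pass. It was 0.46 with slide means removed.

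The choroid plexus genes themselves varied widely between the blocks. Their summed level relative to the array's 75th percentile ran from 2.69 to 15.96 in WT and from 2.33 to 19.0 in Per3-/- hypothalami. Their mean log2 level lay between -3.29 and -2.36 in 9 mice (5 WT, 4 Per3-/-) and between -1.29 and 0.48 in the other 7 (3 WT, 4 Per3-/-). Within the 9 mice, r with Rdh5 was 0.40, and within the 7 it was 0.96, as a description. Rdh5 was between 0.10 and 1.12 in the former and between 0.91 and 1.997 in the latter. None of the 10 genes passed the genotype test, with differences of 0.12 to 0.83 (SE 0.39 to 1.51) and a median of 0.38. The differences lay above 0 for all 10. Each of these genes rose and fell with Rdh5, so the shared sign is not 10 separate observations.

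Rdh5 in the hypothalamus also passed against the means of melanin synthesis (r = 0.85, permutation p = 5.0e-05, adjusted p = 0.00347, rho = 0.75, permutation p = 0.00315, adjusted p = 0.109, 16 mice) and of visual cycle partners (r = 0.83, permutation p = 0.0001, adjusted p = 0.00463, rho = 0.82, permutation p = 0.00037, adjusted p = 0.0514). Without the 2 farthest mice these were 0.79 and 0.79, and with slide means removed 0.83 and 0.74. Here only some genes carried the relation, among them Oca2 (0.89), Slc24a5 (0.82) and Dct (0.71) of the former, and Ttr (0.81) and Abca4 (0.77) of the latter, with medians over the single genes of 0.19 and 0.12. Ttr, the transthyretin that carries retinol-binding protein and thyroid hormone and is a leading product of the choroid plexus, spanned 9.32 on the log2 scale over the 16 hypothalami. Its part in the result was not tested. Stra6 had r = 0.07 with the choroid plexus genes there, and did not pass (permutation p = 0.801, adjusted p = 0.948, rho = -0.02, permutation p = 0.936, 16 mice).

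**Figure D5:**
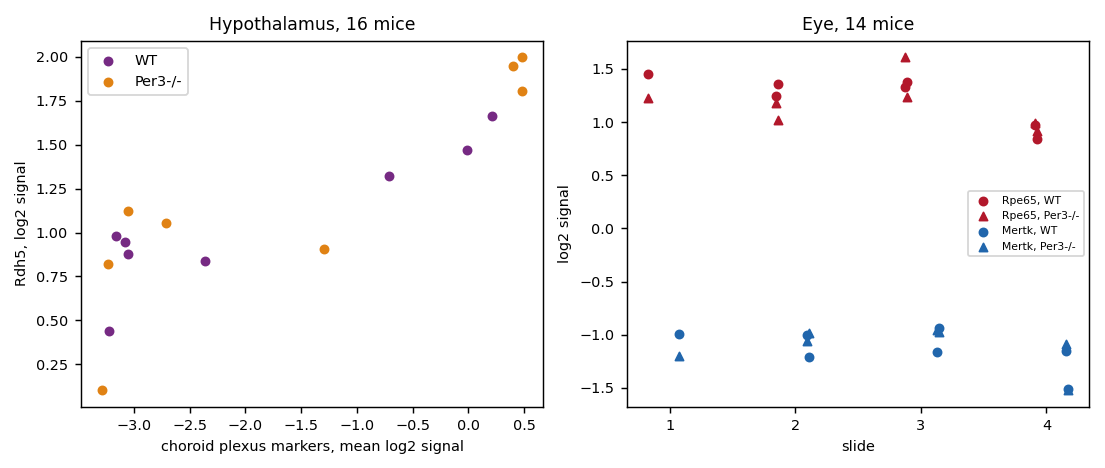
Left, log2 signal of Rdh5 (vertical axis) against the mean log2 signal of 8 choroid plexus markers (horizontal axis) in 16 hypothalami, WT and Per3-/-; right, log2 signal of Rpe65 and Mertk in 14 eyes by slide. Rdh5 climbs from 0.10 to 1.997 with the markers, and the 4 eyes of slide 4 have the lowest Rpe65.

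The bases before the start of transcription were searched for TAATCC, the core bound by OTX2 and CRX, and for CACGTG or CATGTG, an E-box of the kind that MITF binds, on both strands, in the 250 bases before each start given by RefSeq (GRCm38.p6). The 7 genes had 10 starts, 4 of them of Stra6. The windows of 3 genes that held a match are shown, with matches in capitals.
Rpe65: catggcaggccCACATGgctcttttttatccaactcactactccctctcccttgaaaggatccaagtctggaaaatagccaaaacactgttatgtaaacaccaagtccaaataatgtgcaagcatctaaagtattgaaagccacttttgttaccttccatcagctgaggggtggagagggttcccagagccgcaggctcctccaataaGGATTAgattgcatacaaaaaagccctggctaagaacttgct
Rlbp1: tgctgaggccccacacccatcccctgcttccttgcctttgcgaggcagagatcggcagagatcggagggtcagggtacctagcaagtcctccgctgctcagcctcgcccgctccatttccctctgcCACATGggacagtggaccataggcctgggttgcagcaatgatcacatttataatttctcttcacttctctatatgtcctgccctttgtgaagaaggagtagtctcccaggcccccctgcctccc
Best1: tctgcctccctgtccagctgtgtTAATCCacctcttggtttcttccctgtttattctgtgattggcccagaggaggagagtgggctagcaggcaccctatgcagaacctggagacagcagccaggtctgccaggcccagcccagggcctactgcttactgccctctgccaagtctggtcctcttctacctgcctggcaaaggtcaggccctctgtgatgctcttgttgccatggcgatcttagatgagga
These are chr3:159598931-159599180 (plus strand), chr7:79387028-79387277 (minus strand) and chr19:10001634-10001883 (minus strand). TAATCC was found before Rpe65, 42 bases from the start on the reverse strand, and before Best1, 227 bases from the start, and 6.25% of 32851 such windows in RefSeq held it. CATGTG was found on the reverse strand 239 bases before the start of Rpe65 and 124 bases before that of Rlbp1, and 17.6% of windows held one of the E-boxes. Rpe65 and Best1, with a TAATCC each, differed between the tissues in opposite directions (9.27 and -1.55). The windows of Lrat, Rdh5, Stra6 and Mertk held neither motif.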

How the data were processed

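Total RNA of the whole eye (7 WT, 7 Per3-/-) and of a hypothalamic block (8 WT, 8 Per3-/-) was hybridised by the authors to Agilent whole-genome mouse arrays (60-mer probes, a single dye). The intensity per spot that the authors deposited is the processed signal of Feature Extraction, from which the software had taken the background and a spatial trend, and is linear. The log2 values of the series table that the authors deposited are these signals after 75th percentile scaling, centred per probe, and served as an alternative. The genome assembly is mm9 for the hypothalamus arrays, and the eye files hold an older annotation.

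Spots marked uneven or outlying were dropped (no more than 91 per array), spots of a probe were averaged, and log2 values were taken relative to the 75th percentile of the non-control probes. Groups were compared with limma 3.58.1 in R 4.3.3 over all 41174 probes, two-sided, with Benjamini-Hochberg adjustment over all of them. Single probes were also tested by exact permutation over mice. Correlations used 100000 permutations within genotypes and were run in Python 3.11.15 (scipy 1.17.1, numpy 2.4.6, pandas 2.3.3). The scripts were tested on simulated data. Lower bounds set a dim tissue at the higher of its own signal and the dimmest signal well above background on each array. Precision is limited by the number of arrays.

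The 7 genes and the lists of genes were chosen with earlier results of these data known, and the relations of the members with the lists and the hypothalamic neuropeptide genes were added after the values were seen. Named genes were all member probes, the 3 genes of each eye list with the largest tissue difference and those needed to describe a list, and the 8 genes most like Rpe65. Where a gene had several probes, that of the highest mean stood for it in lists and correlations. Of 135 listed genes, 3 were not on the array (Rdh8, Kcnj13, Rom1).

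Each of the 4 slides of a tissue held both genotypes. Eye and hypothalamus arrays of the same genotype and replicate number were taken as 1 mouse, which the labels do not state. Their deviations had correlations of -0.12 to 0.16 over 14 such pairs. Same-numbered mice of different genotypes lay on 1 slide, and their deviations had correlations of 0.109 to 0.627 over 6 pairs in the eye and -0.03 to 0.316 over 8 pairs in the hypothalamus. Over probes well above background on every array the eye correlations began at 0.00146, and the labels name no pairing, so the replicate block was an alternative. Alternatives were quantile normalization, normexp (offset 50), only probes well above background, marked spots kept, slide or replicate blocks, the methods' unpaired test, other scaling, single genotypes and leaving out each mouse.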

Additional observations from a re-analysis of the deposited data

Results flagged for a closer look

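Of 36 sets of values (9 probes in 4 groups), 4 held a mouse set far from the rest of its group, and chance alone gives about 1 in 20. Lrat with A_51_P350033 was 0.0593 in the eye of WT mouse 8, against 0.64 in the next lowest WT eye. Rlbp1 was -0.82 in the hypothalamus of Per3-/- mouse 7, against -1.13 in the next highest. Best1 with A_52_P299934 was -3.92 in the eye of Per3-/- mouse 7, against -5.43 in the next highest, while A_51_P508781 of the same gene gave -1.56 in that eye, inside the range of the other eyes. Mertk was -1.52 in the eye of Per3-/- mouse 8, against -1.20 in the next lowest, and the eye of WT mouse 8 on the same slide was at -1.51.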

How the results depend on the processing

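The tissue difference passed for 9 member probes and for 7 to 9 under every alternative run. It passed for 8 under quantile normalization, normexp, array median scaling and in each genotype alone, 7 at a 2-fold minimum (without Stra6 and Mertk), and 8 to 9 with 1 mouse left out. In the runs with 8, Stra6 was the probe lost, and under normexp the second Best1 probe. Stra6 turned to -0.0200 under array median scaling. No member probe passed a genotype test in the eye, in the hypothalamus or between them under any alternative run (0 with each mouse left out). With only probes well above background, the second Best1 probe could not be fitted in the eye, nor Rpe65 and Lrat in the hypothalamus. Over all probes, 8 passed in the eye, 4 under normexp and 1 with the replicate block. In the hypothalamus 17 passed, 10 under normexp and 5 with the replicate block, and for the difference between the tissues 2 passed, 1 under quantile normalization and 0 under normexp (906 at an unadjusted p under 0.05). Among differences that did not pass, the sign turned for the first Lrat probe (A_51_P350033) in the eye with the replicate block (0.0741), and for Rpe65 under normexp in the hypothalamus (-0.130) and between the tissues (0.0246). With 1 mouse left out, signs turned within -0.126 to 0.0453 for that Lrat probe in the eye (above 0 without WT mouse 1 or 6 or Per3-/- mouse 2 or 8), -0.205 to 0.00474 in the hypothalamus and -0.0325 to 0.177 between the tissues (both without WT mouse 2), -0.0356 to 0.0951 for Mertk in the eye (below 0 without WT mouse 8) and -0.0195 to 0.328 for Stra6 in the hypothalamus (below 0 without WT mouse 1). The replicate block changed no call of a member. The median r over the 21 pairs of members, 0.32, ran from 0.23 to 0.35 with 1 eye left out and from 0.21 (normexp) to 0.41 (Per3-/- eyes alone) otherwise, except for 0.02 with the probes of lowest mean for Lrat and Best1. The cause was not tested. Signal over background limits Rpe65 and Lrat in the hypothalamus and the second Best1 probe in the eye.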
